A study of Astatotilapia calliptera and Haplochromis burtoni and Pundamilia nyererei with 40 samples.

Results

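The comparison concerns the gonads of Pundamilia nyererei (PN), a haplochromine cichlid of Lake Victoria, and sets 4 libraries from PN testes against 3 from PN ovary. These are the 7 libraries that the sample labels assign to PN, of 40 libraries in all. The whole study sequenced poly(A) messenger RNA from gonads of 6 East African cichlid species and from brains of Astatotilapia calliptera (AC), to profile RNA of genes and of transposable elements (TEs). All PN fish were wild-type animals raised in stock tanks, with no allele or treatment that differed between the organs, and their ages were not given in the sources used here. RNA came from pieces of tissue. Ovaries and testes hold both germ cells and somatic cells, and in such bulk libraries fewer cells of a type cannot be told apart from less RNA per cell. The labels call the libraries replicates without saying that each came from another fish. The methods of the study describe biological replicates, made from organ pieces of similar mass from size-matched fish of a species. Which fish gave which library is not stated, so p-values measure the spread between these samples.

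TEs are mobile DNA sequences that change place in a genome or leave new copies in it. Retrotransposons, which include LINE, SINE and LTR elements, move through an RNA copy, whereas DNA transposons such as hAT and TcMar elements move as DNA, cut out by a transposase. Germ cells of animals restrain TEs with Piwi-interacting RNAs and, in vertebrates, with DNA methylation, because a new insertion in the germline passes to the offspring. Copies of one origin form a family, and families with related enzymes form a superfamily. TE counts can also come from transcripts of genes that run into or contain a TE, and their part in the values given here was not tested.

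The PN table held 24272 genes and 726 TE families, of which 434 were DNA elements, 235 LINE, 29 LTR, 14 retroposons, nearly all of unknown type, 13 SINE and 1 a Helitron (rolling-circle element). Ovary libraries held 10685268 to 21651838 assigned counts and testes libraries 8554149 to 23864856. By the detection rule of the study, more than 10 counts in at least 2 libraries, 647 families were detectable, and 11 had no count in any of the 7 libraries. Intervals and limits based on counts cover counting error only, because the reads carried no molecular identifiers. The gene identifiers of PN carry no names, so egg coat, sperm and testis genes that would check the organ labels could not be read by name. The defining markers of both organs were therefore not analysed here.

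One library stood apart from its group. PN ovary 2 correlated with the other ovaries at Spearman's rho of 0.75 and 0.757 across features, whereas PN ovary 1 and PN ovary 3 correlated at 0.906 and the testes at 0.961 to 0.98. These correlations are across genes and TE families, which are not independent replicates. In PN ovary 2 the 100 most abundant genes took 29.5% of the counts, against 13.4% and 15.3% in the other ovaries and 16.4% to 23.5% in the testes. Its scaling factor by the trimmed mean of M-values (TMM, which sets the libraries to a common level over most genes) was 0.599, the lowest of the 7. Among the 3 ovaries it held the highest level in 480 of the 643 TE families tested (74.7%), against 31.2% of the genes. Of all 643 families, it stood above every testes library in 308 (47.9%), and of all tested genes in 39.2%. Counts and medians without PN ovary 2 are therefore given beside the main results. The ovaries also varied more than the testes, with a median SD of log2(CPM + 1) over TE families of 0.74 among ovaries and 0.19 among testes, where CPM is the counts per 1000000 counts after TMM scaling.

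TE families took 0.739% of the assigned counts in PN ovary 1, 1.42% in PN ovary 2 and 0.625% in PN ovary 3. They took 1.65%, 1.41%, 1.57% and 1.39% in PN testes 1 to 4. PN ovary 2 lay within the range of the testes, and the other ovaries lay below all testes. The difference of 0.578 percentage points did not exceed the spread between replicates (exact permutation p = 0.171, two-sided, 3 against 4 libraries), and without PN ovary 2 it was 0.824. With 35 possible splits this test cannot give a p below 0.0571.

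**Figure D1:**
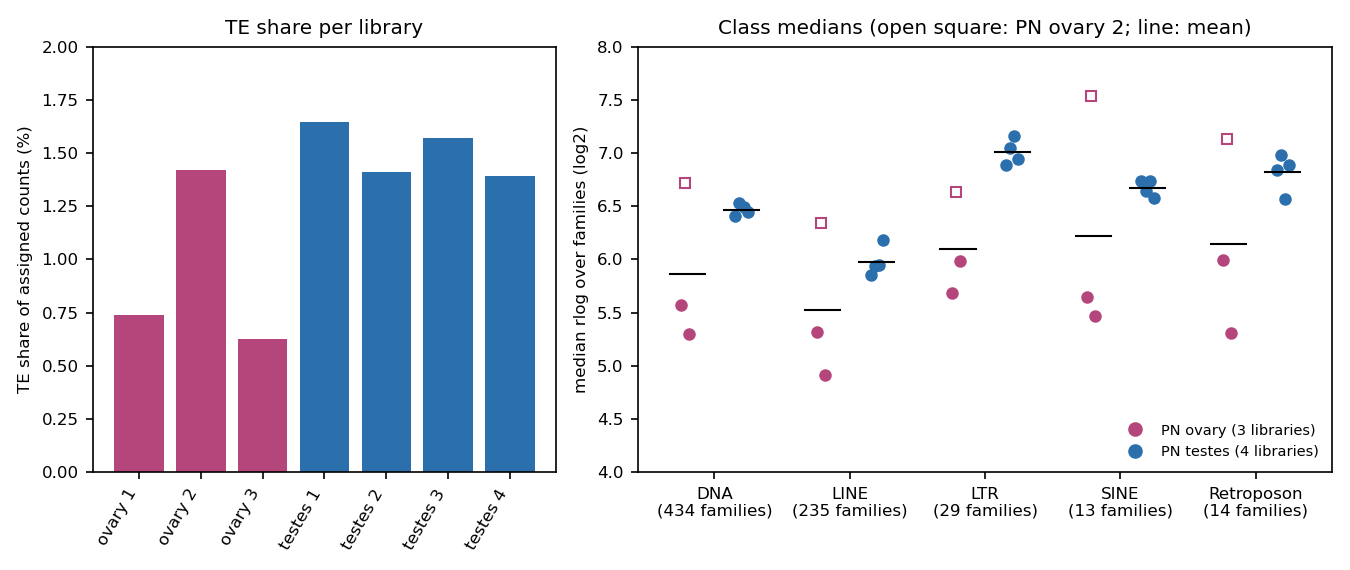
TE share of assigned counts (percent, bars from 0, left) and median deposited rlog value per TE class (log2 scale, points, right) in the 3 PN ovary and 4 PN testes libraries. PN ovary 2, at 1.42%, sits among the testes and the other ovaries sit at 0.739% and 0.625%, while for the LTR class every testes point lies above every ovary point.

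The next question was which TE families differed between the organs. Counts of genes and families were fitted together with the quasi-likelihood test of edgeR, and a family was called at an adjusted p under 0.05 over all features tested. Of the 643 families tested, 141 were called (21.9%), with 111 higher in testes (17.3%) and 30 lower (4.67%). Of the genes, 8240 of 17764 were called (46.4%), with 3861 higher (21.7%) and 4379 lower (24.7%). In 199 families every testes library stood above every ovary (30.9%), and in 33 below (5.13%). Among the called families the organs did not overlap in 110 of the 111 that were higher and in 24 of the 30 that were lower. The called rises had a median log2 fold change of 2.33 and the called falls one of -2.33. No called rise was smaller than 1.00 on the log2 scale, and no called fall was nearer to 0 than -1.24.

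The number of calls and the balance of directions depended on single libraries and on the scaling. Without PN ovary 2, 397 of 650 families were called (61.1%), 365 higher (56.2%) and 32 lower (4.92%), and 136 of the 141 called families were called again in the same direction. Without that library the share of genes called was 60.3%, close to that of TE families. Leaving out any 1 testes library gave 69 to 78 calls. The median log2 fold change over all tested TE families was 0.52, against -0.24 over genes. It was 1.2 for TE families and 0.36 for genes with total counts in place of TMM, and 1.47 and 0.03 without PN ovary 2. When scaling and test used TE families alone, the median was -0.14 and 84 families were higher and 100 lower. All 111 called rises were called with total counts and 68 with TE families alone, whereas 9 of the 30 called falls were called with total counts and 28 with TE families alone. Under every setting tried, 25 rises and 8 falls were called. Some of these rises had few counts in every ovary and can have passed the filter on low counts through the testes alone. Scaling on TE families alone sets the libraries to a common level over most families, so it cannot show a shift of the whole TE set. The median was positive with TMM over all features and with total counts.

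Low and abundant families differed in their counts of calls. Among 378 tested families with a mean under 10 CPM, 82 were higher in testes and 9 lower, with a median log2 fold change of 0.83. Among the 265 with at least 10 CPM, 29 were higher and 21 lower, with a median of 0.08. The difference between these counts was not tested. At the extreme, 3 families had no count in any ovary and were called higher, namely rnd-1_family-169 and rnd-1_family-210, both TcMar-Tc1 elements, and rnd-5_family-4048, an L2 element. These passed the filter on low counts through the testes alone. Their calls could only be rises, so they say nothing of the balance of directions. Families with few counts in 1 organ can also have passed through the other alone, and these were not counted. One such rise was rnd-5_family-4330, at 0.0545, 0 and 0.0626 CPM in ovaries. The balance among low families given above therefore rests in part on the filter.

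Grouped by class, 58 of 384 DNA families were higher in testes and 19 lower, with a median log2 fold change of 0.48. For LINE, elements that code for their own reverse transcriptase, 40 of 206 were higher and 8 lower, with a median of 0.58. In LTR elements, which resemble retroviruses in their structure, 7 of 29 were higher and 2 lower, with a median of 1.04. The share called in either direction was 20.1% for DNA, 23.3% for LINE and 31.0% for LTR, against 21.9% of all tested families. Without PN ovary 2 there were 213 higher and 20 lower of 388 DNA families, 122 and 9 of 208 LINE families, and 17 and 2 of 29 LTR families. With TE families alone the balance of DNA turned, to 44 higher and 68 lower with a median of -0.16, while LINE had 31 and 22 with a median of -0.05 and LTR 6 and 5 with a median of 0.14. The 13 tested retroposons had 5 higher and 0 lower, with a median of 1.00, and 9 and 0 without PN ovary 2. The 10 tested SINE families, short elements that borrow the enzymes of LINEs, had 0 higher and 1 lower, with a median of -0.79, which became 0.01 with total counts and 0.50 without PN ovary 2.

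The deposited rlog values, log2 counts that DESeq2 shrinks for low families, were compared per class as well. The median rlog over LTR families was 5.69, 6.63 and 5.99 in PN ovaries 1 to 3 and 6.94, 6.88, 7.04 and 7.17 in PN testes 1 to 4. All 4 testes stood above every ovary, by a mean difference of 0.91, at the smallest p the design allows (exact permutation p = 0.0571, adjusted over 4 classes 0.229). The difference was 0.61 for DNA and 0.46 for LINE (exact permutation p = 0.286 for each), and in both PN ovary 2 stood above every testes library. For SINE it was 0.46 over all 13 families and -0.41 over the detectable ones. It was also negative, at -0.50, without the families of doubtful class, an alternative chosen after seeing the data. Its sign therefore depends on which families are included.

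Superfamilies with at least 5 tested families ranged widely. The highest median log2 fold change, 2.03, was found in hAT-Blackjack, DNA transposons of the hAT group, where 3 of 5 families were called higher. PiggyBac elements, DNA transposons of the cut-and-paste kind, followed with 4 of 9 higher and a median of 1.54. In L1, a LINE superfamily, 4 of 9 were higher with a median of 1.46. In Gypsy (Ty3) LTR elements 5 of 15 were higher with a median of 1.29, and all testes exceeded all ovaries in 10 of the 15. Over all tested families, 17.3% were called higher, and all testes exceeded all ovaries in 30.9%. In this fit 0 families of these 4 superfamilies were called lower, while 1 PiggyBac and 1 L1 family were with TE families alone and 1 L1 family was without PN ovary 2. Their medians kept the sign with total counts (2.66, 2.18, 2.05 and 2.02), with TE families alone (1.18, 0.97, 0.65 and 0.64) and without PN ovary 2 (2.27, 2.08, 1.69 and 2.0).

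TcMar-Tc1 was the largest superfamily and moved in both directions, with 22 of 162 families higher and 12 lower and a median of 0.36, which turned to -0.32 with TE families alone. L2, the largest LINE superfamily, had 19 of 77 higher and 5 lower with a median of 0.56, and -0.19 with TE families alone. RTE-BovB, another LINE group, had 6 of 31 higher and 0 lower, and Rex-Babar, a LINE group found in fishes, had 6 of 54 higher and 2 lower. Among hAT-Ac elements 7 of 63 were higher and 4 lower. The share called in either direction was 21.0% for TcMar-Tc1, 31.2% for L2 and 19.4% for RTE-BovB. It was 14.8% for Rex-Babar and 17.5% for hAT-Ac, against 21.9% of all tested families. Without PN ovary 2 the rises and falls were 84 and 12 for TcMar-Tc1, 43 and 4 for L2, 17 and 0 for RTE-BovB, 34 and 2 for Rex-Babar and 38 and 2 for hAT-Ac. With TE families alone they were 11 and 30, 18 and 12, 5 and 3, 4 and 2, and 8 and 13 in the same order. With total counts they were 44 and 4, 27 and 2, 8 and 0, 12 and 0, and 16 and 1.

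At the other end, Ngaro elements had 0 of 7 higher and 2 lower with a median of -0.44, which became 0.40 with total counts and 0.16 without PN ovary 2. Ngaro elements are LTR-related retrotransposons that integrate with a tyrosine recombinase. P elements, DNA transposons first known from Drosophila, had 0 of 6 called and a median of -0.53, which became 0.10 with total counts. The LINE group Dong-R4 had 0 of 13 called and a median of -0.11, and the SINE group 5S-Deu-L2 0 of 5 and a median of -0.25. Both medians turned positive with total counts (0.62 and 0.54) and without PN ovary 2 (1.04 and 0.59).

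Median rlog values per library were compared for the same 23 superfamilies. In 20 of them the testes mean exceeded the ovary mean, and in 21 without PN ovary 2. PN ovary 2 was the highest of the ovaries in 21 of the 23. In 9 superfamilies all 4 testes stood above every ovary, each at the smallest p the test allows (exact permutation p = 0.0571). These were hAT-Blackjack, hAT-Tip100, PiggyBac, TcMar-Tc2, TcMar-Tigger, Gypsy, I, L1 and RTE-BovB. No superfamily passed after adjustment over 23 tests, where the lowest adjusted p was 0.146, nor at an unadjusted p under 0.05, which this design cannot reach. TcMar-Tc2, DNA transposons, showed the largest of these differences, 1.74, with 4.16, 5.29 and 3.64 in the ovaries and 5.99, 6.08, 6.2 and 6.15 in the testes.

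**Figure D2:**
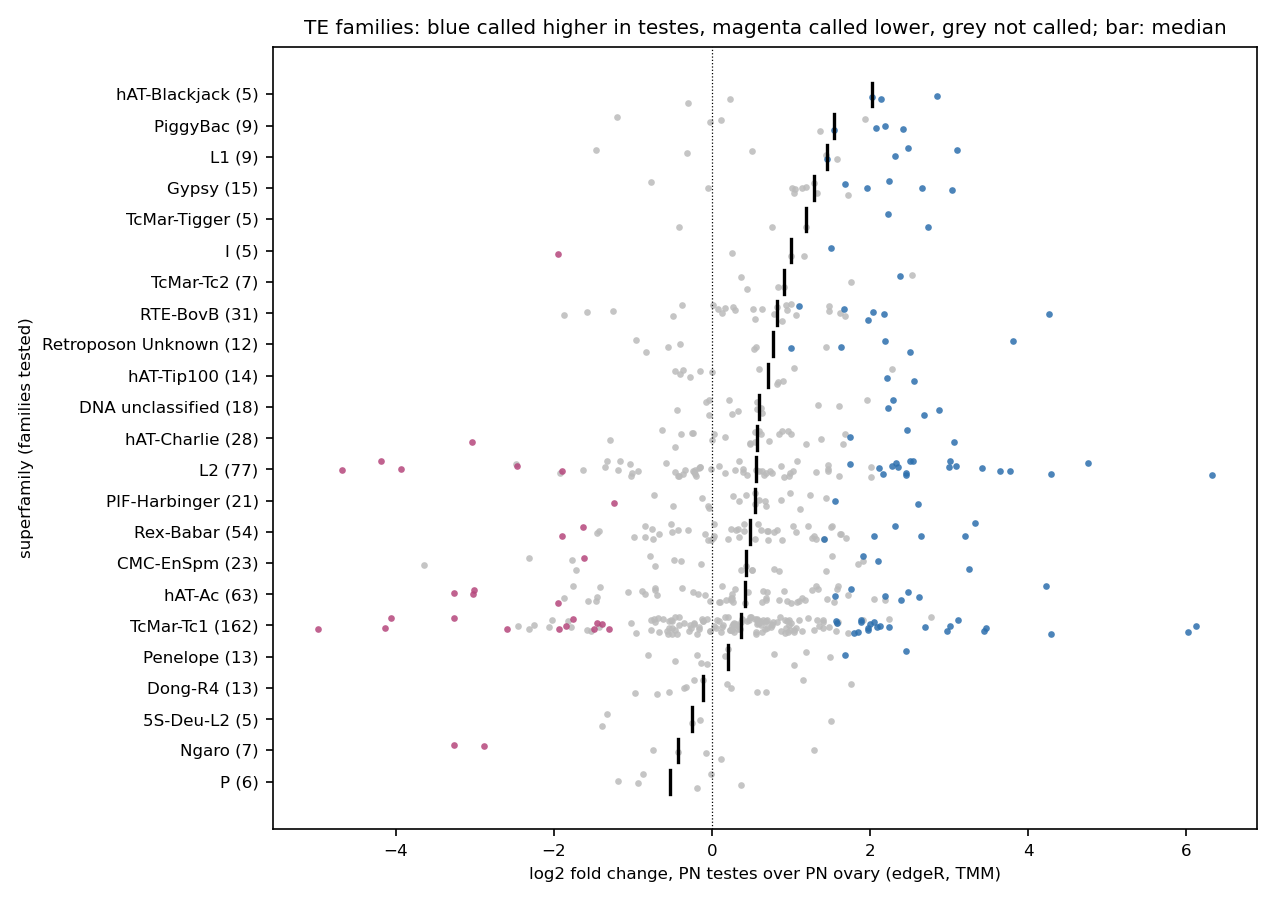
Fitted log2 fold change of testes over ovary (horizontal axis) for each tested TE family, 1 point per family, in the 23 superfamilies with at least 5 tested families, ordered by median. Called families are coloured. Superfamily medians run from -0.53 for P to 2.03 for hAT-Blackjack, and TcMar-Tc1 holds called families on both sides.

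Individual families showed what lies behind these medians. Named are, in each superfamily with at least 5 tested families, the called family with the largest fold in each direction whose mean CPM is 10 or more and whose organs do not overlap, together with the 5 families of highest CPM in each organ. This gave 23 families, 19 of them called, with 10 higher in testes and 9 lower. Most of the 19 were picked as called and without overlap, at most 1 per direction in each superfamily. Their number, balance of directions and lack of overlap therefore follow largely from the rule. Over all tested families, 111 were higher and 30 lower. All 19 were called without PN ovary 2, all 10 rises also with total counts, and 5 of the 9 falls with total counts. Of the 19, 10 were called in each of the 7 fits that left out 1 library.

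Among LINE families, the L2 family rnd-5_family-33 measured 8.73, 22.4 and 5.88 CPM in PN ovaries 1 to 3 and 163, 151, 175 and 182 CPM in PN testes 1 to 4. The organs were far apart, with PN ovary 2 the highest ovary. The log2 fold change was 3.77 with a standard error (SE) of 0.57 (edgeR adjusted p = 0.00192). The L2 family rnd-1_family-490 went the other way, with 28.7, 10.4 and 71.5 CPM in ovaries and 2.09, 2.04, 2.18 and 1.80 CPM in testes. Here the testes were alike and the ovaries spread widely above them, for a log2 fold change of -4.18 (SE 0.66, adjusted p = 0.00224). Both calls held whichever library was left out.

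The L1 family rnd-5_family-1406 stood at 6.0, 13.4 and 1.82 CPM in ovaries and at 33.7, 27.7, 36.2 and 41.7 CPM in testes. No testes library came near the ovaries, and the log2 fold change was 2.31 (SE 0.66, adjusted p = 0.0206). The call was lost without PN ovary 1, PN testes 1, PN testes 3 or PN testes 4, at adjusted p-values of 0.0569 to 0.0862. An I family, rnd-5_family-214, had the most even ovaries of the named rises, at 14.7, 12.5 and 12.5 CPM against 32.2, 36.4, 37.0 and 44.4 CPM in testes. Its log2 fold change of 1.50 (SE 0.37, adjusted p = 0.0108) was called whichever library was left out and was not called with TE families alone (adjusted p = 0.408).

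In the RTE-BovB family rnd-6_family-40, ovaries had 3.22, 9.78 and 2.57 CPM and testes 15.0, 13.0, 19.1 and 17.9 CPM. The organs did not overlap, though PN ovary 2 lay close to the lowest testes, and the log2 fold change was 1.66 (SE 0.59, adjusted p = 0.0465). Leaving out any library other than PN ovary 2 ended this call, at adjusted p-values of 0.0841 to 0.157. The Rex-Babar family rnd-1_family-188 was lower in testes, with 26.8, 29.3 and 25.5 CPM in ovaries and 9.45, 8.35, 8.35 and 9.01 CPM in testes. Both organs were tight, and the log2 fold change was -1.63 (SE 0.37, adjusted p = 0.00806). It was called whichever library was left out, but not with total counts (adjusted p = 0.104).

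Among DNA transposons, the hAT-Ac family rnd-1_family-63 had 1.75, 12.0 and 2.13 CPM in ovaries and 197, 49.9, 112 and 28.4 CPM in testes. The testes themselves ranged widely here, all above every ovary. The log2 fold change of 4.23 (SE 1.01, adjusted p = 0.0102) held whichever library was left out. Another hAT-Ac family, rnd-4_family-210, was lower in testes, at 19.9, 9.78 and 50.6 CPM in ovaries and 9.07, 5.82, 6.93 and 5.94 CPM in testes. PN ovary 2 lay just above PN testes 1, and the log2 fold change was -1.95 (SE 0.58, adjusted p = 0.025). This call was lost with total counts (adjusted p = 0.114) and without PN ovary 3, PN testes 2, PN testes 3 or PN testes 4 (0.0629 to 0.0863).

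The TcMar-Tc1 family with the largest called fall by the rule, rnd-5_family-1518, had 34.7, 31.4 and 45.8 CPM in ovaries and 1.46, 1.11, 0.949 and 1.14 CPM in testes. Its log2 fold change was -4.99 (SE 0.45, adjusted p = 0.00103). It kept its call in every leave-one-out fit and with TE families alone, where its log2 fold change was -6.07. A more abundant TcMar-Tc1 family, rnd-5_family-6565, had 180, 156 and 493 CPM in ovaries and 20.9, 16.7, 15.3 and 13.2 CPM in testes. Every ovary held several times the level of any testes library, at a log2 fold change of -4.06 (SE 0.53, adjusted p = 0.00139), and the call held whichever library was left out. The superfamily TcMar-Tc1 as a whole took 27.0%, 18.5% and 28.9% of the TE counts in PN ovaries 1 to 3 and 17.6% to 19.0% in testes, so by share PN ovary 2 was the ovary within the range of the testes. Its summed CPM was 1889, 4425 and 2451 in the ovaries and 2109 to 2546 in testes, where PN ovary 2 was the highest library.

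The TcMar-Tigger family rnd-6_family-1240 measured 3.05, 7.57 and 2.0 CPM in ovaries and 25.4, 30.0, 11.6 and 10.9 CPM in testes. PN testes 3 and 4 were the lower testes but stayed above PN ovary 2, at a log2 fold change of 2.23 (SE 0.67, adjusted p = 0.0258). The call was lost without PN ovary 1, PN ovary 3, PN testes 1, PN testes 2 or PN testes 3 (0.0536 to 0.0944). In the CMC-EnSpm family rnd-5_family-1371, ovaries had 3.49, 21.1 and 2.69 CPM and testes 38.5, 40.6, 34.9 and 39.8 CPM. The testes were even while PN ovary 2 stood well above the other ovaries. The log2 fold change was 2.10 (SE 0.74, adjusted p = 0.0468), and it rested on 6 libraries, since leaving out any but PN ovary 2 ended the call (0.0912 to 0.167).

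Lower in testes was the CMC-EnSpm family rnd-5_family-4225, with 13.9, 36.9 and 30.5 CPM in ovaries and 10.7, 6.30, 9.77 and 8.51 CPM in testes. PN ovary 1 lay near the testes, and the log2 fold change of -1.62 (SE 0.47, adjusted p = 0.0217) was lost without any 1 of the 4 testes (0.0547 to 0.0792) and with total counts (0.164). The PIF-Harbinger family rnd-4_family-2045 had 68.7, 81.5 and 80.1 CPM in ovaries and 39.0, 31.5, 29.5 and 30.1 CPM in testes. The ovaries were even and every one stood above every testes library, at a log2 fold change of -1.24 (SE 0.32, adjusted p = 0.0142). The call was lost with total counts (0.229) and without PN testes 2, PN testes 3 or PN testes 4 (0.0568 to 0.0626).

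Among LTR families, the named Gypsy family was higher and the named Ngaro families were lower in testes. The Gypsy family rnd-4_family-1048 had 9.76, 11 and 6.95 CPM in ovaries and 66.2, 54.0, 58.7 and 54.0 CPM in testes. Both organs were tight, and the log2 fold change of 2.66 (SE 0.38, adjusted p = 0.0017) was called under every setting tried. The Ngaro family rnd-1_family-1 had 71.0, 908 and 699 CPM in ovaries and 65.0, 55.2, 58.8 and 54.1 CPM in testes. PN ovaries 2 and 3 were far above the rest, and PN ovary 1 lay just above PN testes 1. The log2 fold change was -3.26 (SE 0.75, adjusted p = 0.00892), called whichever library was left out.

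The second Ngaro family, rnd-5_family-1356, had the same shape, with 46.9, 480 and 352 CPM in ovaries and 47.5, 38.0, 33.1 and 39.9 CPM in testes. PN testes 1 lay slightly above PN ovary 1, so the organs overlapped, and the log2 fold change was -2.89 (SE 0.68, adjusted p = 0.01). Ngaro as a whole took 5.35%, 7.49% and 17.0% of the TE counts in PN ovaries 1 to 3 against 2.80% to 3.31% in testes. By summed CPM PN ovary 1 lay within the range of the testes, with 374, 1793 and 1436 in the ovaries and 344 to 406 in testes. Those 2 families carried the called falls of the superfamily.

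A retroposon of unknown type, rnd-1_family-300, had 4.58, 8.2 and 1.06 CPM in ovaries and 32.9, 36.4, 22.2 and 11.8 CPM in testes. PN testes 4 was the lowest testes and still above every ovary, at a log2 fold change of 2.5 (SE 0.75, adjusted p = 0.0252). The call was lost without PN ovary 1, PN testes 1, PN testes 2 or PN testes 3 (0.0622 to 0.0861). The single Helitron family, rnd-5_family-5869, belongs to a superfamily with 1 tested family, so it falls outside the naming rule, and was chosen after its values were seen. It had 2.18, 3.31 and 2.19 CPM in ovaries and 88.8, 41.6, 24.7 and 29.1 CPM in testes, at a log2 fold change of 4.18 (SE 0.63, adjusted p = 0.00191), and was called under every setting tried.

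**Figure D3:**
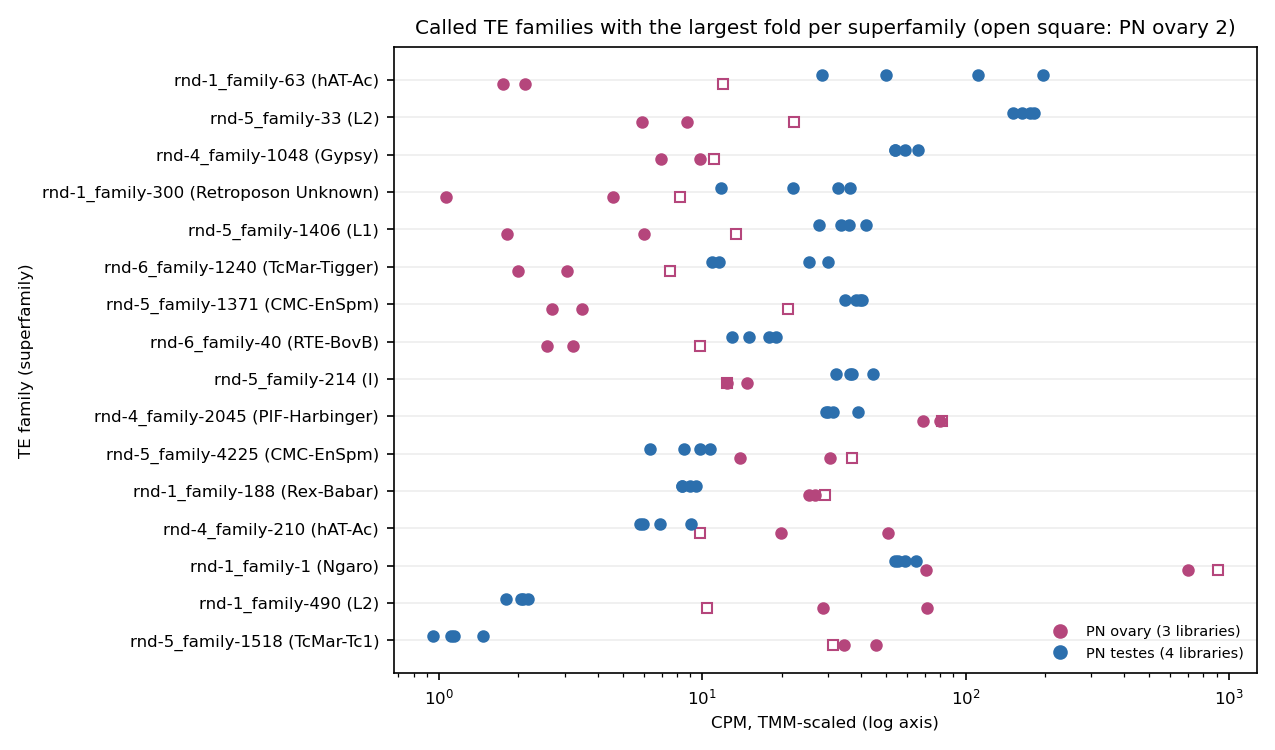
CPM (log axis) of 16 named TE families in each of the 3 PN ovary and 4 PN testes libraries, 1 point per library. The L2 family rnd-5_family-33 sits between 151 and 182 CPM in testes and at or below 22.4 CPM in ovaries, while the Ngaro family rnd-1_family-1 reaches 908 and 699 CPM in PN ovaries 2 and 3.

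The 5 families of highest CPM in each organ made 8 families, of which 4 were called and 4 were not. The L2 family rnd-1_family-0 had 134, 1689 and 68.7 CPM in ovaries and 707, 477, 512 and 478 CPM in testes. PN ovary 2 was the highest of all libraries and the other ovaries were the lowest. The log2 fold change was -0.21 (SE 0.98, adjusted p = 0.871), and without PN ovary 2 it turned to 2.45 (adjusted p = 0.00201), as it did to 0.70 with total counts. The hAT-Ac family rnd-1_family-46 had 261, 615 and 89.3 CPM in ovaries and 733, 554, 1135 and 424 CPM in testes. PN ovary 2 again lay among the testes, and the log2 fold change of 1.14 (SE 0.72, adjusted p = 0.219) became 2.05 without it (adjusted p = 0.0211).

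Also not called was the retroposon rnd-1_family-326, with 107, 159 and 21.2 CPM in ovaries and 397, 294, 214 and 138 CPM in testes. PN testes 4 fell below PN ovary 2, and the log2 fold change was 1.44 (SE 0.70, adjusted p = 0.121). It was called without PN ovary 2 (2.06, adjusted p = 0.0406) and with total counts (2.05, adjusted p = 0.0422). The L2 family rnd-4_family-89 had 92.3, 214 and 237 CPM in ovaries and 230, 209, 215 and 302 CPM in testes. The organs overlapped, at a log2 fold change of 0.40 (SE 0.46, adjusted p = 0.499) that turned to -0.59 with TE families alone and to -0.01 without PN ovary 1.

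A further abundant L2 family, rnd-6_family-16, was called, with 18.5, 87.2 and 24.2 CPM in ovaries and 211, 204, 181 and 274 CPM in testes. Every testes library held more than PN ovary 2, the highest ovary, at a log2 fold change of 2.33 (SE 0.62, adjusted p = 0.0156). The call was lost without PN ovary 1, PN testes 1 or PN testes 3 (0.0567 to 0.0612). L2 as a whole took 10.8%, 16.3% and 10.1% of the TE counts in PN ovaries 1 to 3 and 17.1% to 19.2% in testes, so by share all ovaries lay below all testes. By summed CPM this did not hold, with 754, 3901 and 854 in the ovaries and 2066 to 2618 in testes.

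Genes were compared in the same fit. Of 17764 genes tested, 118 had at least 10 CPM in every testes library and under 1 CPM in every ovary, and 69 showed the reverse. Without PN ovary 2, 11082 of 18381 genes were called (60.3%), 5380 higher (29.3%) and 5702 lower (31.0%). Genes are given by identifier, and CPM is not corrected for length, so levels of different genes are not compared.

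The 5 genes with the largest fitted rises were at or near 0 in ovaries. ENSPNYG00000017086 had 0, 0.158 and 0 CPM in ovaries and 24.8, 26.3, 28.2 and 29.1 CPM in testes. A single count in PN ovary 2 was the whole ovary signal, so the testes were even and the ovaries empty but for that count. The ratio of testes to ovary was 1102, with a 95% counting interval of 198 to 43547. ENSPNYG00000013777 and ENSPNYG00000013489 likewise had 1 ovary count each, with ratios of 1291 (232 to 51008) and 1227 (220 to 48496).

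With more ovary counts, ENSPNYG00000009029 had 0.164, 1.58 and 0.125 CPM in ovaries and 288, 317, 216 and 54.1 CPM in testes. PN testes 4 was the lowest of the testes, at a log2 fold change of 8.70 (SE 1.26, adjusted p = 0.00174). ENSPNYG00000019879 had 0.0545, 1.58 and 0 CPM in ovaries and 402, 82.4, 92.1 and 43.2 CPM in testes. PN testes 1 stood apart above the other testes, at a log2 fold change of 8.52 (SE 1.70, adjusted p = 0.00496).

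The largest fitted falls were genes at or near 0 in testes, and their ovary levels spread widely. ENSPNYG00000008447 had 349, 16.2 and 2.32 CPM in ovaries and no count in any testes library. It was at least 3552-fold lower in testes, where the floor is 3 counts over the 4 libraries. By the ovary mean and the same floor ENSPNYG00000006973, at 62.0, 39.3 and 2.19 CPM in ovaries, was at least 999-fold lower. ENSPNYG00000014811, at 57.1, 585 and 71.9 CPM, was at least 6892-fold lower. The last of these was the only gene with no count in any testes library and at least 10 CPM in every ovary.

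ENSPNYG00000020164 had 222, 29.2 and 568 CPM in ovaries and 0.125, 0, 0 and 0 CPM in testes, where PN testes 1 held 3 counts. The ratio of ovary to testes was 9505, with a 95% counting interval of 3252 to 46094. ENSPNYG00000003912 had 1081, 36.0 and 4.38 CPM in ovaries and 0, 0.178, 0 and 0.0668 CPM in testes. PN ovary 1 carried most of the ovary level, at a log2 fold change of -12.30 (SE 2.18, adjusted p = 0.00321).

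Genes of the highest CPM in ovary again showed PN ovary 2 apart. ENSPNYG00000011875 had 755, 11570 and 1154 CPM in ovaries and 243, 173, 97.2 and 101 CPM in testes. All ovaries exceeded all testes and PN ovary 2 by far the most, at a log2 fold change of -4.87 (adjusted p = 0.00797), or -2.61 without PN ovary 2. ENSPNYG00000005327 had 1799, 18740 and 971 CPM in ovaries and 962, 1172, 530 and 475 CPM in testes. PN ovary 3 lay among the testes, and the call (adjusted p = 0.0391) was lost without PN ovary 2 (0.197), without any 1 testes library and with total counts (0.0595).

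Among the genes of highest CPM in testes, ENSPNYG00000020037 had 10.6, 57.7 and 0.689 CPM in ovaries and 8649, 9764, 5387 and 2358 CPM in testes. The testes stood far above all ovaries, at a log2 fold change of 8.16 (SE 1.71, adjusted p = 0.00598). ENSPNYG00000004631 had 179, 357 and 0.939 CPM in ovaries and 27195, 23641, 13385 and 13894 CPM in testes. Its log2 fold change was 6.77 (SE 1.80, adjusted p = 0.0158), and the call was lost without PN ovary 1 (0.0611). ENSPNYG00000002693 had 283, 79.3 and 2.25 CPM in ovaries and 5465, 6302, 6465 and 3081 CPM in testes, with no overlap and a log2 fold change of 5.46 (SE 1.47, adjusted p = 0.0168).

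The study's list of TE silencing factors names 3 PN genes for de novo DNA methyltransferases, the enzymes that place new methyl groups on DNA. The dnmt3aa gene ENSPNYG00000022177 had 0, 0.946 and 0 CPM in ovaries and 35.6, 34.3, 43.0 and 47.2 CPM in testes. The ovary signal came from PN ovary 2 alone, and the log2 fold change was 7.50 (SE 1.38, adjusted p = 0.00367). The dnmt3bb.1 gene ENSPNYG00000023855 had 0.109, 0.158 and 0.0626 CPM in ovaries and 7.27, 6.88, 8.63 and 8.65 CPM in testes. The testes were tight and the ovaries held 4 counts in all, at a log2 fold change of 6.18 (SE 0.67, adjusted p = 0.00108).

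The third, the dnmt3ba gene ENSPNYG00000013610, was not called. It had 0.164, 4.73 and 22.7 CPM in ovaries and 31.5, 36.0, 36.2 and 50.8 CPM in testes. Every testes library exceeded every ovary while the ovaries differed widely, at a log2 fold change of 2.06 (SE 1.12, adjusted p = 0.159). So 2 of the 3 methyltransferase genes were called higher, against 21.7% of all tested genes. With 6 counts for dnmt3aa and 4 for dnmt3bb.1 over all ovaries, both passed the filter on low counts through the testes. The number called therefore says nothing of the group.

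Other genes were grouped through the study's orthogroups, sets of genes that descend from 1 ancestral gene, and carry the names of their AC members. An orthogroup holds near copies, so reads may be split between its members and values of single genes are uncertain. There were 63 orthogroups with every PN gene listed and a named AC gene, with 444 PN genes, of which 286 were tested, 72 called higher and 68 lower. Over all tested genes, 21.7% were called higher and 24.7% lower. Orthogroups with at least 5 tested genes numbered 33, and the ones with the highest share of called members in each direction are described. They were picked by that share, so their counts are no test against the share over all genes. Genes that failed the filter on low counts were not tested and enter no count. A tested gene with no count in 1 organ passed that filter through the other organ alone, so its call says nothing of its group. There were 2 such genes for GRIA and 1 each for muscle myosins, dlg and claudins. Genes with few counts in 1 organ can also have passed through the other alone, and these were not counted. Rises called in each of the 7 fits that left out 1 library numbered 3 for GRIA, 3 for SCN, 5 for muscle myosins, 1 for TLE, 3 for dlg, 3 for PTPRD, 2 for SLC12A and 1 for pde4. Such falls numbered 2 for h2ax1, 3 for ATP1A, 3 for RAB3, 2 for ARF and 1 for gna11.

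The highest share of called rises was found in the orthogroup of GRIA genes, subunits of AMPA glutamate receptors, where 4 of 5 tested genes were higher in testes and 1 was lower. Of these 5 genes, 2 had no count in 1 organ, so the share rests partly on genes that passed the filter through the other organ alone. ENSPNYG00000021331 had 0.218, 0.315 and 0.25 CPM in ovaries and 4.10, 5.77, 5.69 and 6.61 CPM in testes. Both organs were even, with few counts in the ovaries, at a log2 fold change of 4.41 (SE 0.59, adjusted p = 0.00147). ENSPNYG00000000228 had no count in ovaries and 1.59, 2.09, 2.09 and 2.10 CPM in testes, at least 26.6-fold higher.

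In the orthogroup of SCN genes, pore subunits of voltage-gated sodium channels, 4 of 6 were higher and 1 was lower. ENSPNYG00000021794 had 0.109, 2.68 and 0.125 CPM in ovaries and 33.4, 34.4, 12.4 and 34.1 CPM in testes. PN testes 3 was the lowest testes and PN ovary 2 the highest ovary, at a log2 fold change of 5.06 (SE 1.21, adjusted p = 0.0104). The member that was lower, ENSPNYG00000002743, had 11.5, 1.10 and 4.51 CPM in ovaries and 0.418, 0.133, 0.0949 and 0.134 CPM in testes.

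Striated muscle myosin heavy chains (myh6, myh7 and relatives) had 5 of 9 higher and 1 lower. ENSPNYG00000011051 had 0.273, 0.158 and 0.0626 CPM in ovaries and 11.5, 20.2, 13.0 and 27.6 CPM in testes. The organs were far apart, at a log2 fold change of 6.69 (SE 0.78, adjusted p = 0.00118). ENSPNYG00000008220, the lower member, went from 12.4, 1.10 and 10.1 CPM to between 0.71 and 1.37 CPM, and its call was lost without PN testes 2 (adjusted p = 0.0504).

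The non-muscle and smooth muscle myosins (MYH10, myh11 and relatives) had 3 of 7 higher and 1 lower. ENSPNYG00000002550 had 2.35, 1.89 and 1.75 CPM in ovaries and 37.5, 56.8, 60.1 and 76.6 CPM in testes, with no overlap and a log2 fold change of 4.85 (SE 0.48, adjusted p = 0.00107). Its relative ENSPNYG00000016788 had 340, 6.47 and 118 CPM in ovaries and 4.43, 2.62, 1.80 and 3.87 CPM in testes. PN ovary 2 lay close to the testes while the other ovaries stood far above, at a log2 fold change of -5.59 (SE 1.09, adjusted p = 0.00446). Members of 1 orthogroup thus moved in opposite directions.

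The same held for TLE genes, co-repressors of transcription, with 3 of 5 higher and 2 lower. ENSPNYG00000010511 had 13.0, 17.8 and 13.2 CPM in ovaries and 85.4, 109, 143 and 145 CPM in testes. Its log2 fold change was 3.04 (SE 0.41, adjusted p = 0.00144). ENSPNYG00000014824 had 44.1, 25.9 and 50.1 CPM in ovaries and 4.97, 3.42, 3.61 and 3.47 CPM in testes, a log2 fold change of -3.37 (SE 0.43, adjusted p = 0.00134). Neither gene overlapped between organs.

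At an equal share of 50% called higher stood 5 orthogroups. The dlg genes, scaffolds of synapses and cell junctions, had 3 of 6 higher and 0 lower. PTPRD and related receptor tyrosine phosphatases also had 3 of 6 higher and 0 lower, as did the SLC12A genes, which code for potassium and chloride cotransporters. The pde4 genes, which degrade cyclic AMP, had 3 of 6 higher and 2 lower, and si:ch211-1n9.6, a name without a stated role, had 4 of 8 higher and 2 lower. Both pde4 falls were lost without PN ovary 2 (adjusted p = 0.229 for ENSPNYG00000017013 and 0.169 for ENSPNYG00000020996).

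In the PTPRD orthogroup, ENSPNYG00000019530 had 0.273, 0.789 and 0.0626 CPM in ovaries and 22.2, 23.2, 25.7 and 22.9 CPM in testes. The testes were nearly equal, at a log2 fold change of 6.15 (SE 0.82, adjusted p = 0.00147). The SLC12A gene ENSPNYG00000008311 had 0.709, 8.52 and 0.563 CPM in ovaries and 117, 141, 172 and 184 CPM in testes, a log2 fold change of 5.62 (SE 1.09, adjusted p = 0.00437). PN ovary 2 was the highest ovary in both genes.

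Falls were led by the orthogroup named after the AC gene h2ax1, for histone H2A.X. Which of its PN members are H2A.X genes was not known. In the h2ax1 orthogroup 4 of 6 tested genes were lower in testes and 0 higher. ENSPNYG00000005419 had 240, 88.6 and 1035 CPM in ovaries and 0.46, 0.0888, 0 and 0 CPM in testes, a log2 fold change of -11.53 (SE 1.57, adjusted p = 0.00155). A further member, ENSPNYG00000023786, had 117, 246 and 543 CPM in ovaries and 98.2, 104, 76.1 and 61.4 CPM in testes. PN ovary 1 lay close to the testes in that gene, and its call was lost with total counts (adjusted p = 0.0967), without PN ovary 3 and without any 1 testes library (0.0608 to 0.0844).

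Other histone orthogroups were outside the rule and were chosen after their values were seen. Histone H3 had 2 of 4 lower, with ENSPNYG00000006614 at 362, 963 and 2724 CPM in ovaries and 79.3 to 88.6 CPM in testes (log2 fold change -4.01, adjusted p = 0.00342). Histone H2B (H2BK1) had 1 of 4 lower, with ENSPNYG00000015415 at 170, 20.2 and 175 CPM in ovaries and 4.51, 5.42, 5.88 and 8.01 CPM in testes (log2 fold change -4.35, adjusted p = 0.00246). No tested member of the h2ax1, H3 or H2B orthogroups was called higher. Poly(A) selection leaves out histone messages without a poly(A) tail.

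Among ATP1A genes, catalytic subunits of the sodium pump, 5 of 8 were lower and 2 higher. ENSPNYG00000018978 was one of those higher, with 5.02, 2.52 and 1.06 CPM in ovaries and 71.5, 76.6, 57.4 and 82.9 CPM in testes (log2 fold change 4.64, adjusted p = 0.00147). Of the RAB3 genes, small GTPases of vesicle release, 3 of 5 were lower and 0 higher. Of the ARF genes, small GTPases of vesicle traffic, 4 of 8 were lower and 2 higher. The gna11 genes, alpha subunits of G proteins, had 3 of 6 lower and 1 higher. With total counts the lower counts were 3 for ATP1A, 2 for RAB3, 3 for ARF, 1 for gna11 and 2 for h2ax1.

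ENSPNYG00000022440, an ATP1A gene that was lower, had 257, 443 and 83.8 CPM in ovaries and 45.4, 56.7, 34.8 and 22.2 CPM in testes. Every ovary stood above every testes library, at a log2 fold change of -2.72 (SE 0.60, adjusted p = 0.00759). The ARF gene ENSPNYG00000009472 had 193, 1950 and 492 CPM in ovaries and 84.3, 74.8, 87.5 and 71.7 CPM in testes, where PN ovary 2 was the highest library (log2 fold change -3.46, adjusted p = 0.00743).

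Marker lists of cell types that a gonad can hold were read through the same orthogroups. Claudins, the seal of epithelial tight junctions, had 3 of 4 tested genes lower and 0 higher. Summed over the orthogroup they measured 932, 397 and 4505 CPM in PN ovaries 1 to 3 and 3.85, 3.24, 1.52 and 0.868 CPM in PN testes 1 to 4. All ovaries stood far above all testes. ENSPNYG00000018919 had 242, 156 and 1439 CPM in ovaries and 0.334, 0, 0.0949 and 0.0668 CPM in testes (log2 fold change -12.18, adjusted p = 0.00122). ENSPNYG00000018937, with no count in testes, was at least 588-fold lower.

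Tubulin alpha genes, the building blocks of microtubules, had 1 of 10 higher and 4 lower, and the 1 tested tubb2 gene was not called. ENSPNYG00000020859 was the gene called higher, with 35.3, 59.5 and 36.6 CPM in ovaries and 98.6, 77.2, 94.9 and 122 CPM in testes. Its log2 fold change was 1.17 (SE 0.38, adjusted p = 0.0334), and the call was lost without PN ovary 1 or any 1 testes library (0.0646 to 0.116). ENSPNYG00000019360 was lower, with 465, 2065 and 249 CPM in ovaries and 121, 99.9, 50.2 and 40.2 CPM in testes (log2 fold change -3.57, adjusted p = 0.00907). Without PN ovary 2 the alpha tubulins had 5 higher and 4 lower.

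Actins had 1 of 10 higher and 4 lower. ENSPNYG00000004333 had 844, 69.9 and 852 CPM in ovaries and 4.10, 2.22, 1.80 and 4.51 CPM in testes (log2 fold change -7.53, adjusted p = 0.00138). The most abundant actin, ENSPNYG00000018427, was not called. It had 3326, 39248.5 and 2571 CPM in ovaries and 3817, 2913, 2871 and 2529 CPM in testes, so the organs were alike but for PN ovary 2, and the log2 fold change of -2.31 (adjusted p = 0.1) became 0.07 without that library.

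The orthogroup of fibrillar collagens col1a1, col1a2, col2a1b and col5a2b, proteins of connective tissue, had 3 of 7 higher and 0 lower. ENSPNYG00000019493 had 292, 178 and 32.7 CPM in ovaries and 3005, 3640, 3431 and 2812 CPM in testes. Every testes library exceeded every ovary by a wide margin, at a log2 fold change of 4.27 (SE 0.89, adjusted p = 0.00596). ENSPNYG00000008421 had 2 counts over the ovaries and 20.5, 31.1, 13.3 and 17.1 CPM in testes, a ratio of 431 (95% counting interval 119 to 3564). The orthogroup of col5a1, col5a3 and col11a genes had 2 of 7 higher and 0 lower, and type IV, of basement membranes, 1 of 4 higher and 0 lower.

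Of 7 pcdh2a genes, clustered protocadherins known as adhesion proteins of neurons, 3 passed the filter on low counts. Since all 3 had no count in ovaries, they passed through the testes alone and their calls say nothing of the group. They were at least 10.4-fold, 28.8-fold and 12.2-fold higher in testes. The 1 tested pcdh1g gene was also called higher. Of the trim35 genes, which belong to a family with immune roles, 0 of 8 were higher and 2 lower, of which ENSPNYG00000018812 was lost without PN ovary 2 (adjusted p = 0.132).

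Haemoglobin, the marker of red blood cells, was present in all libraries. The beta globins summed to 66.5, 328 and 303 CPM in PN ovaries 1 to 3 and to between 52.7 and 109 CPM in testes, so PN ovaries 2 and 3 stood above the rest. Of 3 tested beta globin genes, 1, ENSPNYG00000012094, was lower in testes (log2 fold change -1.76, adjusted p = 0.0394), and the call was lost with total counts (0.175), without PN ovary 3 and without any 1 testes library (0.0792 to 0.175). The alpha globin hbae5 measured 37.4, 391 and 194 CPM in ovaries and 30.9 to 73.7 CPM in testes and was not called. Whether blood in PN ovaries 2 and 3 moved the results was not tested. The Ngaro families given above were also highest in PN ovaries 2 and 3.

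**Figure D4:**
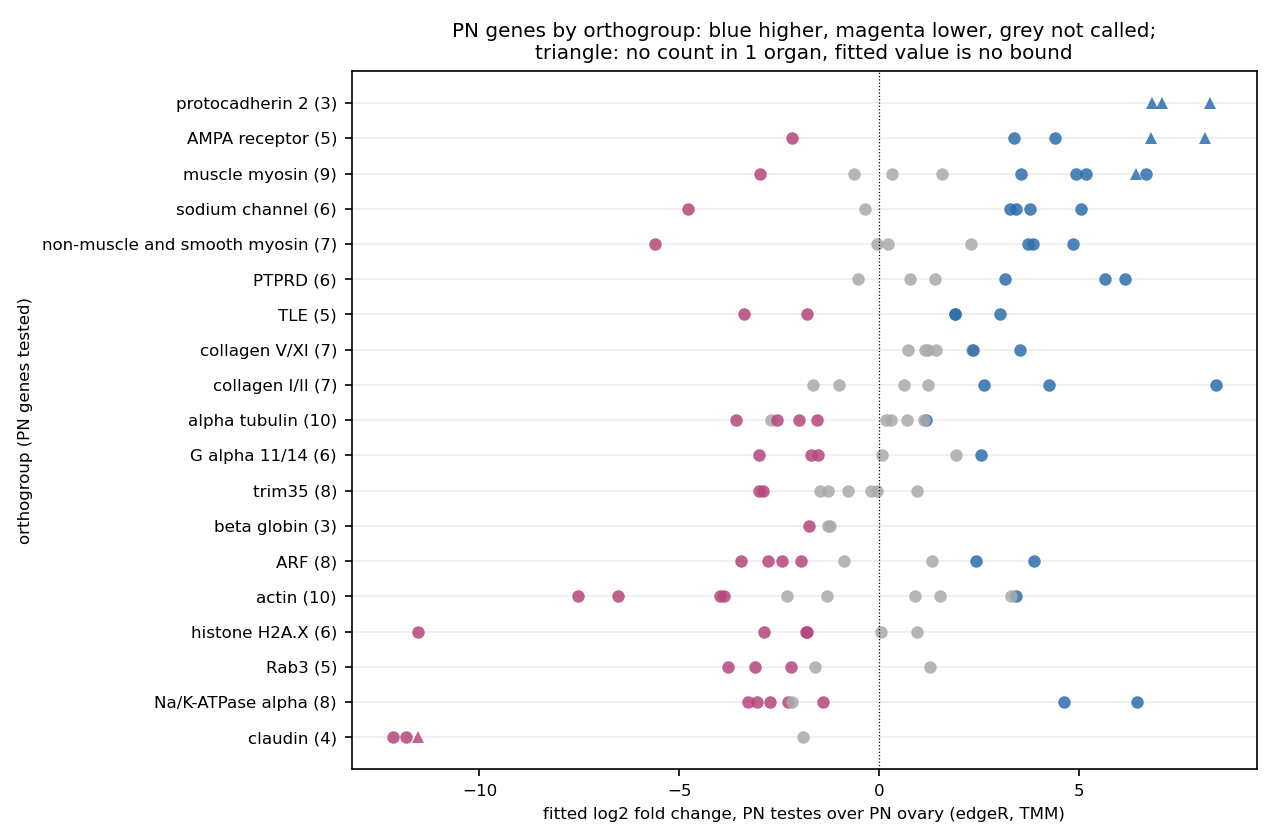
Fitted log2 fold change of testes over ovary (horizontal axis) of each tested PN gene in 19 orthogroups named after their AC members, with called genes coloured. GRIA genes lie mostly to the right and all called claudins lie far to the left, while myosin, TLE and ATP1A orthogroups hold called genes on both sides.

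The last comparison asked whether the difference between the organs was of the same size in PN as in Astatotilapia burtoni (AB, 4 testes and 3 ovaries) and AC (4 testes and 4 ovaries, uncurated TE annotation), 2 other haplochromines. A value was formed per library and superfamily, the median over families of log2 CPM, since family names do not match between genomes. PN libraries were prepared by the study's own laboratory and those of AB and AC by a company, so species and library preparation cannot be told apart. In 20 superfamilies shared with AB, the PN difference between testes and ovary was smaller in 19 and larger in 1, Gypsy. In 19 shared with AC it was larger in 15 and smaller in 4. Both species pairs use the same PN libraries.

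Permuting the species labels within each organ gave an unadjusted p under 0.05 in 4 of 39 tests and passed in 0 after adjustment, where the lowest adjusted p was 0.139. Against AB these were L2 (PN minus AB -1.2), TcMar-Tigger (-1.91) and L1 (-1.41), and against AC it was L1 (PN minus AC 1.16). L1 was thus further apart between the organs in PN than in AC and less far than in AB, on unadjusted exact permutation p-values of 0.045 and 0.011. Without PN ovary 2 the PN difference was larger than that of AB in 7 of 20 superfamilies and larger than that of AC in 17 of 19, and again 0 passed. Without PN ovary 3 the differences from AB passed in L1 (-1.68), TcMar-Tigger (-2.31) and hAT-Charlie (-1.31), each at an adjusted exact permutation p of 0.0371. The order of PN and AB therefore rested in part on single ovary libraries. Permuting species labels also mixes their levels, so differences in level between species widen the range of permuted values. With each species centred first, a choice made after seeing the data, Dong-R4, Ngaro and TcMar-Tigger passed against AB. Each had an adjusted permutation p of 0.0371, which is approximate because the centring used the species labels that were then permuted.

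**Figure D5:**
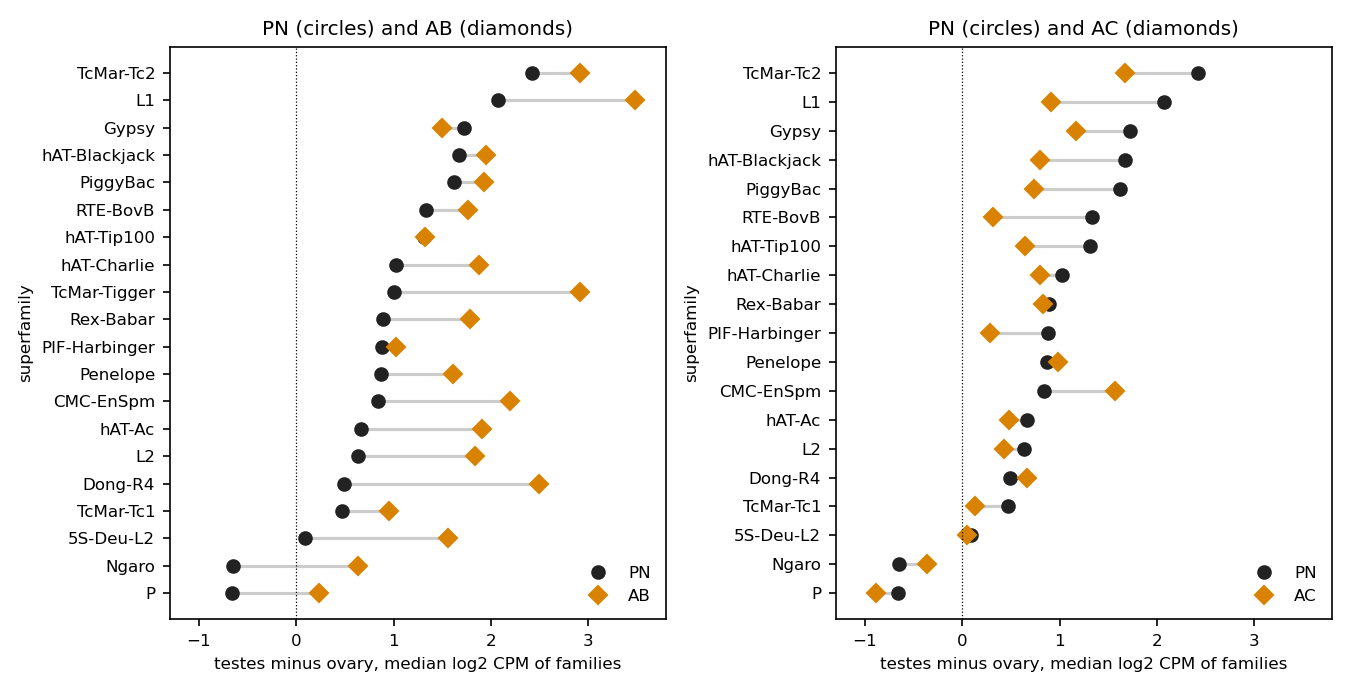
Testes minus ovary difference in median log2 CPM per superfamily, PN beside AB (left, 20 superfamilies) and PN beside AC (right, 19 superfamilies). PN points lie below those of AB in 19 of 20 superfamilies and above those of AC in 15 of 19. For these medians over all libraries, no difference passed adjustment when species were not centred first.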

How the data were processed

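The authors trimmed paired reads of PN gonad libraries with Trimmomatic 0.39, mapped them to the PN genome with STAR 2.5.4b keeping reads with many matches, annotated TEs with RepeatModeler and RepeatMasker and counted genes and TE families with TEtranscripts. The deposited files hold these raw counts and, for TE families, log2 values from the regularised logarithm (rlog) of DESeq2. Library depth is given with the results. Counts were fitted with edgeR 4.0.16 in R 4.3.3 (robust quasi-likelihood, filterByExpr, TMM over genes and TE families) on 7 libraries with organ as the only term, and adjusted by Benjamini and Hochberg over all features tested. Values per library were compared by exact permutation, two-sided, doubling the smaller tail. AB and AC counts entered the species comparison only, scaled within species, with a prior count of 2. Scripts were tested on simulated data. Named families and genes are, by rule, the called ones of largest fold with no overlap and a mean CPM of 10 or more, per superfamily or 5 per direction, and the 5 of highest mean CPM per organ. Genes named in the study's list and orthogroups by share of called members or by marker list are added. The members, lists and rules were chosen with earlier results of these data known. Alternatives were DESeq2 1.42.0, total counts, TE families alone, no filter, no robust estimation, a replicate block and leaving out each library. PN gene names, positions and sequences were not used here.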

Additional observations from a re-analysis of the deposited data

Results flagged for a closer look

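In the testes 4 values lay further from the other 3 libraries of their group than 95% of such groups would by chance, and all 4 belong to PN testes 1. Over 73 groups tested, chance would give about 1 such value in 20 groups if they were independent, and the 4 values are near that rate. The groups share libraries and are not independent. Why all 4 values fell in PN testes 1 was not tested. The median rlog of TcMar-Tc1 families was 5.96 in PN testes 1 against a median of 6.0 in the others. The L2 family rnd-1_family-0 had 707 CPM in PN testes 1 against a median of 478 in the others. The gene ENSPNYG00000019879 had 402 CPM against a median of 82.4, and ENSPNYG00000020164 had 0.125 CPM against a median of 0. For the latter gene, with no count in the other 3 libraries, any count in PN testes 1 would have been flagged.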

How the results depend on the processing

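Most results kept their direction and their side of the threshold. Of the values that answer a comparison, 610 did so, 43 changed sign, 12 newly passed and 7 counts moved by more than 1.5 times. The permutation tests of TE share, classes and superfamilies within PN cannot give a p below 0.0571. Their side of the threshold was therefore fixed in advance, and only their direction could change. For named families and genes the numbers were 484, 10 that changed sign, 7 that newly passed and 58 that no longer passed. Where no cause follows from fewer libraries, the cause was not tested. Same-numbered libraries did not deviate together (correlations of -0.116, -0.047 and 0.046), so the numbers were not taken as pairs. With the replicate number as a block, 52 TE families and 4774 genes were called, 7 of the named calls were lost and dnmt3ba was called (log2 fold change 3.29, adjusted p = 0.02). Leaving out 1 library at a time gave 69 to 397 called families. DESeq2 called 151 families higher and 36 lower, total counts 192 and 9, and no filter on low counts 106 and 26. The SINE difference in median rlog turned to -0.41 over detectable families and, in an alternative chosen after seeing the data, to -0.50 without families of doubtful class. Leaving out 1 library at a time turned the sign of the median rlog difference in Dong-R4 (-0.10 to 0.49) and 5S-Deu-L2 (-1.36 to 0.15).

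For PN against AB, leaving out 1 library gave Gypsy -0.046 to 0.70, L1 -1.68 to -1.03, PIF-Harbinger -0.81 to 0.67, PiggyBac -0.50 to 0.015, RTE-BovB -0.86 to 0.17, TcMar-Tc2 -1.09 to 0.14, TcMar-Tigger -2.31 to -1.43, hAT-Blackjack -0.81 to 0.13, hAT-Charlie -1.31 to -0.27 and hAT-Tip100 -0.56 to 0.55. Total counts turned the sign in PIF-Harbinger (0.36), PiggyBac (0.20), RTE-BovB (0.072), TcMar-Tc1 (0.025), hAT-Blackjack (0.17) and hAT-Tip100 (0.49). With summed CPM, differences passed in L1 (-2.36), L2 (-1.42), Ngaro (-2.40), RTE-BovB (-1.43), TcMar-Tc2 (-1.80) and hAT-Blackjack (-2.12), and the sign turned in PiggyBac (0.37). With species centred before permutation, chosen after seeing the data, Dong-R4 (-2.0), Ngaro (-1.28) and TcMar-Tigger (-1.91) passed.

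For PN against AC, leaving out 1 library gave 5S-Deu-L2 -0.37 to 0.76, Dong-R4 -0.54 to 0.33, L2 -0.14 to 0.73, P -0.024 to 0.37, PIF-Harbinger -0.068 to 1.41, Penelope -0.61 to 0.29, Rex-Babar -0.46 to 0.67, hAT-Ac -0.38 to 0.82 and hAT-Charlie -0.24 to 0.81. Total counts turned the sign in Dong-R4 (0.27), Ngaro (0.17) and Penelope (0.33). Summed CPM turned it in 5S-Deu-L2 (-0.10), P (-0.30), PIF-Harbinger (-0.049), RTE-BovB (-0.12), Rex-Babar (-0.025), hAT-Blackjack (-0.85) and hAT-Charlie (-0.091).

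Among named items the sign turned for the L2 family rnd-1_family-0 (1.40 with the replicate block, 0.70 with total counts and -0.92 to 2.45 over the fits without 1 library) and for rnd-4_family-89 (-0.59 with TE families alone, -0.0078 to 0.66 without 1 library). It also turned for ENSPNYG00000018427 (-3.01 to 0.067 without 1 library), ENSPNYG00000007263 (0.27 with the block, 0.58 with total counts and 0.83 without PN ovary 2) and ENSPNYG00000004346 (-3.55 to 0.91 without 1 library). The shallowest libraries, PN testes 3 and PN ovary 2, limit what low families can show, and 3 ovaries against 4 testes limit every p over libraries.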
